A study of Mus musculus with 6 samples.

Results

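The genes described here are Ppbp, Pf4, Gp1bb, Gp1ba, Gp9, Itga2b, Itgb3, Treml1, Clec1b and Tubb1, which mark platelets and their parent cell, the megakaryocyte. They were taken by gene name from the deposited table, and all 10 were found among its 29097 genes and among the 10440 genes tested. The cells in which they were measured were not platelets but neutrophils, sorted from the peripheral blood (PB) of C57BL/6 wild type mice by the gate CD45+CD11b+Ly6G+. LIP mice carried silk ligatures around their molars for 14 d, which induces periodontitis, and Ctrl mice were left unligated for the same time. All mice were males of 8 weeks. There were 3 Ctrl and 3 LIP libraries, each made by Smart-seq2 from neutrophils pooled over 5 mice. The p-values therefore measure the spread between pools, not between single mice. The sample labels name the LIP group Lig.

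Platelets are shed into blood by megakaryocytes of the bone marrow and lung. They have no nucleus and carry mRNA passed on by the megakaryocyte, together with granules of chemokines and clotting proteins. Their surface receptors bind von Willebrand factor, collagen and fibrinogen at injured vessel walls, and platelets also bind to circulating neutrophils and monocytes, mainly through P-selectin. Ppbp and Pf4 encode granule chemokines, Gp1ba, Gp1bb and Gp9 the receptor for von Willebrand factor, Itga2b and Itgb3 the fibrinogen receptor, Treml1 and Clec1b signalling receptors, and Tubb1 the tubulin of the platelet's marginal band.

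Transcripts of all 10 genes were present in every sorted neutrophil library, and all 10 were higher in LIP than in Ctrl when libraries were normalized by TMM, whereas all 10 lay lower when libraries were scaled on mature neutrophil markers. TMM sets library factors so that most genes stay level. Together the 10 genes took 0.126%, 0.144% and 0.144% of the counted reads in the Ctrl libraries and 0.252%, 0.248% and 0.301% in the LIP libraries. Their summed CPM (reads set to a common library size with the TMM factor) came to 1108, 1308 and 1293 in Ctrl libraries and 2829, 2784 and 3332 in LIP, or 1237 ± 111 against 2982 ± 305 (mean ± SD, n = 3 each), a ratio of 2.41. Every LIP library lay above every Ctrl library. The 10 log2 fold changes ran from 1.19 for Clec1b to 1.44 for Itga2b, which are folds of 2.28 to 2.72 in mean CPM. All 10 passed an adjusted p of 0.05 in edgeR's quasi-likelihood test, where 26.5% of all tested genes were called higher and 27.2% lower. The libraries of the groups did not overlap for any of the 10 genes, a pattern that 30.3% of all tested genes showed in the same direction.

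**Figure D1:**
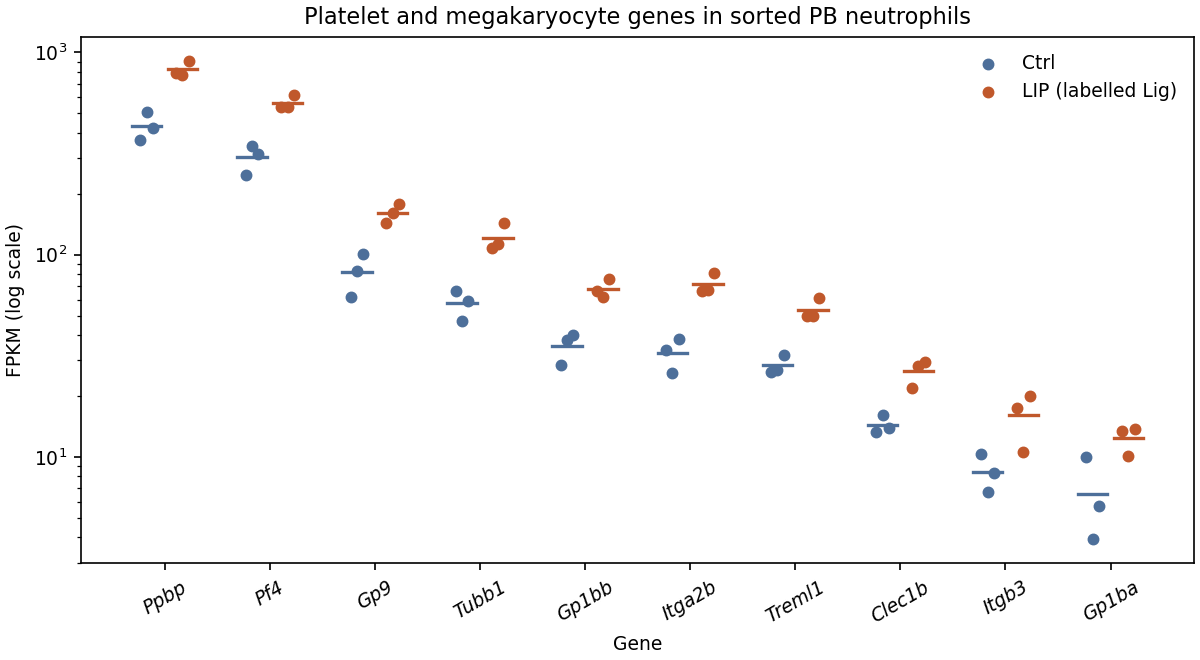
Points give the FPKM of each gene in each library on a log axis, with the 3 Ctrl and the 3 LIP libraries side by side and bars at the group means; genes are ordered by their Ctrl mean. The LIP libraries lie above the Ctrl libraries for every gene on this scale, from Ppbp at 434 against 826 to Gp1ba at 6.54 against 12.4 FPKM, while per count of mature neutrophil markers the 10 genes were lower in LIP. The gap is narrow for Gp1ba, with 9.97 FPKM in the highest Ctrl and 10.1 in the lowest LIP library. For Itgb3 these values are 10.3 and 10.6 FPKM.

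The other contents of the libraries moved as well. The summed CPM of 11 mature neutrophil markers was 12894 ± 951 in Ctrl and 50053 ± 2069 in LIP, 3.88-fold higher, and all 11 rose. S100a8 gave 4709 of this sum in Ctrl and 18148 in LIP, and S100a9 gave 3599 and 14714. The scaling on neutrophil markers used their summed reads, so S100a8 and S100a9 weighed most in it. Single folds ran from 1.31 for Cxcr4 to 5.71 for Mmp8, with 2.93 for the sorting marker Ly6g. Cxcr4 alone rose less than the 10 platelet genes. S100a9, a calcium-binding protein abundant in neutrophils, rose by 2.03 on the log2 scale (SE 0.0858, edgeR adjusted p = 8.55e-08). None of these markers was at 0 in all 6 libraries. Haemoglobin took 14.6% to 15.0% of the reads in Ctrl and 1.55% to 1.61% in LIP, although red cells had been lysed before the sort. For every 100 reads on the neutrophil markers there were 9.38, 9.62 and 9.74 reads on the 10 platelet genes in the Ctrl libraries and 5.71, 5.32 and 6.90 in the LIP libraries, 9.58 ± 0.183 against 5.98 ± 0.823. So on this scale each LIP library lay below each Ctrl library, and the direction of the difference depended on what the platelet reads were set against. The part of the neutrophil and erythroid reads in the change of the 10 genes was not tested, and in bulk libraries fewer cells of a type and less RNA per cell cannot be told apart.

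As a description, the sequence upstream of the starts of the 10 genes was searched for the letters of sites that megakaryocyte transcription factors are known to bind. The part of such sites in the change of the 10 genes was not tested. RefSeq promoters (build GRCm38.p6) were given for 9 of the 10 genes, without Itgb3. In the 250 bases before the start, on either strand, the GATA-factor motif TGATAA was present in 2 of the 9 genes and in 8.16% of 27025 promoters. The other GATA-factor spelling AGATAA was present in 0 of the 9 and in 10.3% of all promoters. The ETS-factor motif AGGAAG was found in 5 of the 9 genes and in 29.2% of all promoters, and TGAGTCA, bound by NF-E2 and AP-1, in 0 of the 9 and in 4.43%. None of these motifs overlapped another in the 9 windows. Gp1ba was the only gene of the 9 with both a GATA and an ETS motif in the window, a combination that 4.76% of all promoters hold. These are matches of letters and not measured binding sites. The sequences shown are those of the 4 genes that hold at least 1 of the motifs and whose RefSeq start lies within 2 bases of the start in the deposited table. They are written 5′ to 3′ on the gene's strand, which is the forward strand for all 4, with motif letters in capitals (TTATCA and CTTCCT being TGATAA and AGGAAG read on the opposite strand), and they end at the base before the start. They come from chr11:70638872-70639121 for Gp1ba, chr5:90772185-90772434 for Pf4, chr6:87777820-87778069 for Gp9 and chr6:129397047-129397296 for Clec1b.
Gp1ba: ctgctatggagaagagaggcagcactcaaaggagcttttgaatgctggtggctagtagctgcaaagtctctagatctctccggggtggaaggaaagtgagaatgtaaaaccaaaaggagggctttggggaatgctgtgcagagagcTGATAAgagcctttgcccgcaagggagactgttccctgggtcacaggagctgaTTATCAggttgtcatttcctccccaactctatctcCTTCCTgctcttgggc
Pf4: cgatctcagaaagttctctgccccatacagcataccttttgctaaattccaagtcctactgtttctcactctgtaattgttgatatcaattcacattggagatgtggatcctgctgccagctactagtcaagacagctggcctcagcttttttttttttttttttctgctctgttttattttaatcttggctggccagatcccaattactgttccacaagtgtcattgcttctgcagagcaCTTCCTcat
Gp9: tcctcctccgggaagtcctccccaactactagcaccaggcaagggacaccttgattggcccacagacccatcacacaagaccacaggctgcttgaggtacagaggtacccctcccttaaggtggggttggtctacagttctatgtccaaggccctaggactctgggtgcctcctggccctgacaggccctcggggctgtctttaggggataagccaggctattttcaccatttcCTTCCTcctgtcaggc
Clec1b: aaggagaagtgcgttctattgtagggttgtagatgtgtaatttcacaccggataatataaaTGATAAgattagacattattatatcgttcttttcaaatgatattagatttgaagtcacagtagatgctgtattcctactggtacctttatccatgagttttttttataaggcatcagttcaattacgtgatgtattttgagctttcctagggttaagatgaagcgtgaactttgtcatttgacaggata
In Gp1ba the ETS motif lay 16 to 11 bases before the start, the same distance as in Gp9, and in Pf4 it lay 9 to 4 bases before it. The GATA motifs of Gp1ba lay 104 to 99 and 51 to 46 bases before the start. That of Clec1b lay farther out, 189 to 184 bases before it.

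Ppbp and Pf4 were the most abundant of the 10 genes. They encode the CXC chemokines CXCL7, which attracts neutrophils through CXCR2 once it has been trimmed, and CXCL4 (platelet factor 4), which binds heparin. They are neighbours on chromosome 5 (GRCm38), at 90768518 to 90770063 for Ppbp and 90772435 to 90773383 for Pf4, both on the forward strand and with 3 exons each. Ppbp measured 381, 542 and 448 CPM in the Ctrl libraries and 1034, 1006 and 1179 CPM in the LIP libraries. Ctrl replicate 1 was lowest and LIP replicate 3 highest, and the lowest LIP library lay 1.86-fold above the highest Ctrl library. The rise of Ppbp was 1.23 on the log2 scale (SE 0.129, 95% interval 0.95 to 1.52, edgeR adjusted p = 2.18e-05). Pf4 measured 170.3, 246 and 219.8 CPM in Ctrl and 468, 465 and 533 CPM in LIP. Its libraries had the same lowest Ctrl and highest LIP replicate as those of Ppbp, and it rose by 1.21 (SE 0.137, interval 0.90 to 1.51, edgeR adjusted p = 3.93e-05). Per length, Ppbp exceeded Pf4 by a ratio of FPKM of 1.49, 1.47 and 1.36 in Ctrl and of 1.47, 1.44 and 1.47 in LIP, so the balance of the chemokines was 1.44 ± 0.07 in Ctrl and 1.46 ± 0.0173 in LIP. The group means differed by less than the spread between the Ctrl libraries.

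Gp1ba, Gp1bb and Gp9 encode subunits of the GPIb-IX-V complex, which tethers platelets to von Willebrand factor. GPIbα, the product of Gp1ba, holds the binding site, GPIbβ is linked to it by disulphide bonds, and GPIX stabilizes the complex. Each of the 3 genes has 2 exons. Gp1bb (chromosome 16, 18620317 to 18622403, reverse strand) measured 56.8, 77.8 and 81.0 CPM in Ctrl and 167, 154 and 189.7 CPM in LIP, a rise of 1.25 (SE 0.154, interval 0.90 to 1.59, edgeR adjusted p = 7.33e-05). Its lowest LIP library lay 1.91-fold above its highest Ctrl library. Gp9 (chromosome 6, 87778072 to 87779768, forward strand), with the ETS motif shown above, measured 52.0, 71.8 and 86.8 CPM in Ctrl and 154, 169 and 187 CPM in LIP, and rose by 1.27 (SE 0.177, interval 0.88 to 1.67, edgeR adjusted p = 0.000168). Gp1ba (chromosome 11, 70639122 to 70642036, forward strand) was the least abundant and least even of the 3 genes, at 25.8, 10.5 and 15.2 CPM in Ctrl and 43.8, 33.0 and 44.9 CPM in LIP. The highest Ctrl library, replicate 1, lay close to the lowest LIP library, replicate 2, with a ratio of 1.28 between them. Gp1ba rose by 1.24 (SE 0.300, interval 0.57 to 1.9, edgeR adjusted p = 0.00556), the widest interval of the 10 genes.

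The subunit genes of the complex stood in unlike ratios to each other. The ratio of Gp9 to Gp1bb in FPKM was 2.17, 2.19 and 2.54 in Ctrl and 2.18, 2.59 and 2.33 in LIP. The ratio of Gp1bb to Gp1ba in FPKM ranged from 2.87 in Ctrl replicate 1 to 9.65 in Ctrl replicate 2, with 6.95 in replicate 3, whereas the LIP libraries lay between 4.96 and 6.09. Both ratios overlapped between the groups. Gp5, which encodes the fourth subunit and is no member of the 10, measured 64.5, 82.2 and 75.8 CPM in Ctrl and 160.1, 152 and 191 CPM in LIP, and rose by 1.18 (SE 0.137, edgeR adjusted p = 4.81e-05). Gp1bb overlaps Septin5 on the same strand, where reads in the shared stretch cannot be assigned with certainty, but Septin5 had a mean of 0.518 FPKM.

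Itga2b and Itgb3 encode αIIb and β3, the subunits of the platelet fibrinogen receptor, through which platelets aggregate. αIIb is largely limited to the megakaryocyte line, while β3 also pairs with αV in other cells. Both are long genes on chromosome 11, Itga2b at 102453297 to 102470122 on the reverse strand with 30 exons and Itgb3 at 104608000 to 104670476 on the forward strand with 15 exons in the annotated transcript with the most exons. Itga2b measured 176, 139 and 202 CPM in Ctrl and 436, 435 and 532 CPM in LIP. It rose by 1.44 (SE 0.147, interval 1.12 to 1.77, edgeR adjusted p = 1.82e-05), and its lowest LIP library lay 2.16-fold above its highest Ctrl library, the widest gap of the 10 genes. Itgb3 measured 58.1, 39.2 and 47.9 CPM in Ctrl and 125, 74.6 and 142 CPM in LIP. LIP replicate 2 stood well below the other LIP libraries, only 1.28-fold above the highest Ctrl library, and the rise of 1.23 carried a wider error (SE 0.230, interval 0.72 to 1.74, edgeR adjusted p = 0.00119). The ratio of Itga2b to Itgb3 in FPKM was 3.27, 3.84 and 4.56 in Ctrl and 3.78, 6.31 and 4.06 in LIP, the high value again coming from LIP replicate 2.

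Treml1 encodes TLT-1, a receptor stored in α-granules and exposed when platelets are activated. It lies on chromosome 17 at 48359916 to 48367176 and measured 35.3, 36.9 and 43.3 CPM in Ctrl and 84.0, 83.3 and 103 CPM in LIP, a rise of 1.23 (SE 0.145, interval 0.91 to 1.55, edgeR adjusted p = 5.23e-05). Clec1b encodes CLEC-2, the podoplanin receptor of platelets, which has also been described on myeloid cells of mice. Clec1b (chromosome 6, 129397297 to 129409335), with the GATA motif shown above, measured 64.4, 80.7 and 68.9 CPM in Ctrl and 135, 173 and 180.1 CPM in LIP and rose by 1.19 (SE 0.145, interval 0.87 to 1.51, edgeR adjusted p = 6.67e-05). Its end overlaps Clec9a, which had a mean of 0.173 FPKM. Tubb1 encodes β1-tubulin, which coils into the ring of microtubules that keeps platelets discoid. On chromosome 2 at 174450695 to 174457882, it measured 88.8, 64.7 and 80.6 CPM in Ctrl and 183, 189.9 and 241 CPM in LIP, and rose by 1.39 (SE 0.154, interval 1.05 to 1.73, edgeR adjusted p = 3.36e-05). For each of the 3 genes every LIP library lay above every Ctrl library, and LIP replicate 3 was the highest.

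**Figure D2:**
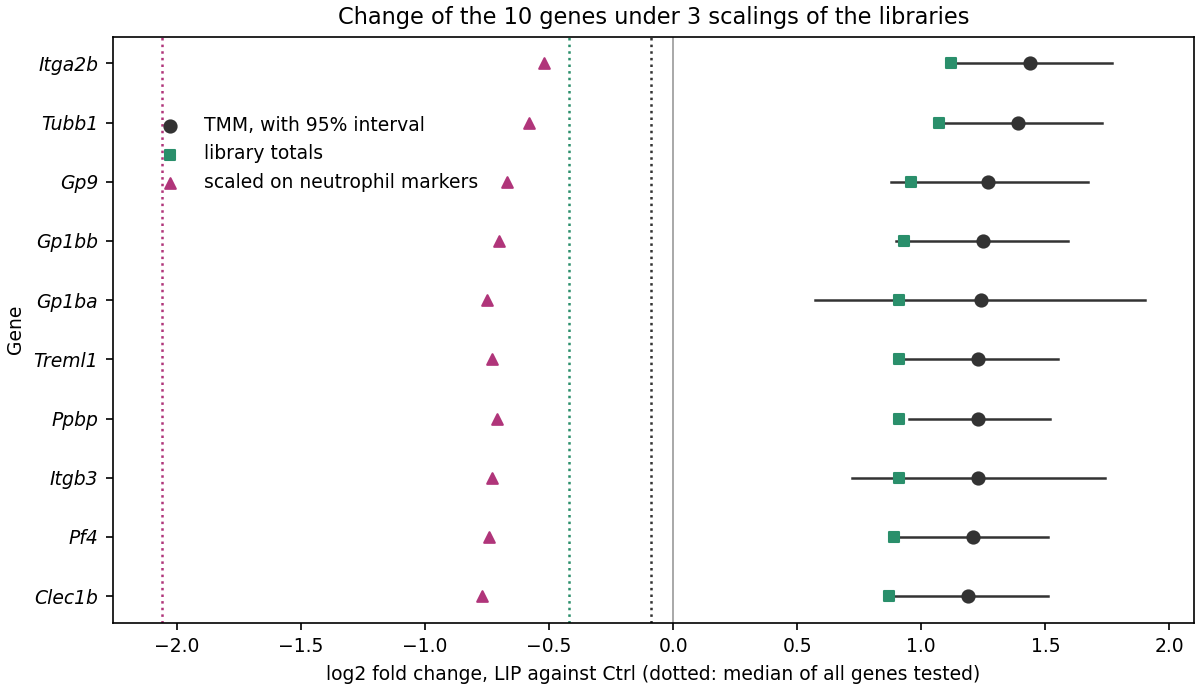
Black points give the log2 fold change of each gene (LIP against Ctrl, edgeR with TMM) with its 95% interval, green squares the same for scaling by library totals alone and purple triangles the same with libraries scaled on mature neutrophil markers; dotted lines mark the median of all 10440 genes under each scaling (-0.09, -0.42 and -2.06). All 10 genes lie right of 0 under TMM and library totals and left of 0 under the neutrophil scaling. They lie right of the median of all genes under each, which a change of scaling leaves in place by construction.

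The size of the change varied little between the 10 genes. Their log2 fold changes spanned 0.25, and the 95% intervals of all 10 held the median of the members, 1.24. For scale, 457 of the 10440 tested genes had a log2 fold change within the range of the 10. Scaling on the neutrophil markers turned the values to between -0.77 and -0.52, with 9 of the 10 past an adjusted p of 0.05 in edgeR and Gp1ba at -0.75 (edgeR adjusted p = 0.0712). Under that scaling 9473 of all 10440 tested genes were called lower and 30 higher, and the median of all tested genes was -2.06. Most genes were thus called lower, not the 10 in particular. Measured from the median of all genes, the median of the 10 was higher by 1.33 under TMM, by 1.33 with library totals and by 1.34 with the neutrophil scaling. A change of library factors shifts all genes nearly alike. This distance therefore stays the same by construction and is no separate evidence.

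The make-up of the platelet signal was close to the same in both groups. Ppbp and Pf4 together gave 71.1%, 77.6% and 71.3% of the summed FPKM of the 10 genes in Ctrl and 73.2%, 72.5% and 71.7% in LIP, that is 73.3% ± 3.7 and 72.5% ± 0.751. Gp9 followed with 8.15% ± 1.42 in Ctrl and 8.37% ± 0.435 in LIP, then Tubb1 with 5.86% ± 1.70 and 6.29% ± 0.402. For none of these did the group means differ by more than the spread between the Ctrl libraries. Without Ppbp and Pf4 the summed CPM of the other 8 genes was 557, 521 and 626 in Ctrl and 1326, 1312 and 1619.8 in LIP, so the difference did not rest on the chemokines alone.

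**Figure D3:**
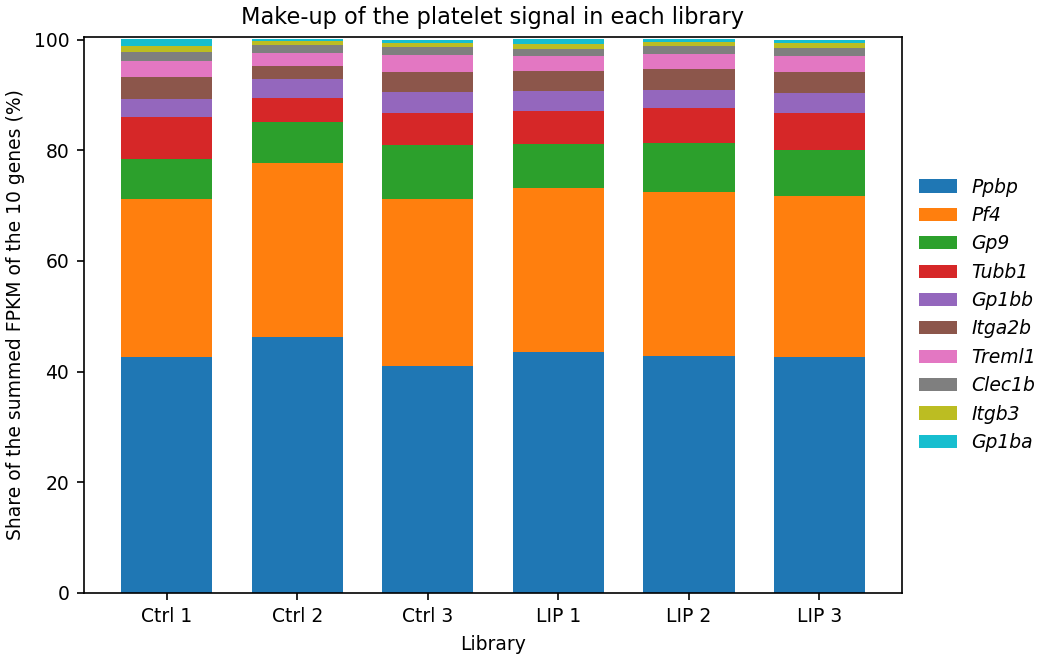
Stacked bars give the share of each gene in the summed FPKM of the 10 genes, 1 bar for each library. The 6 bars are alike in their largest shares, with Ppbp at 41.0% to 46.2% and Pf4 at 28.6% to 31.4%. Ctrl replicate 2 holds the largest chemokine share (77.6%) and the smallest share of Tubb1 (4.25%). Shares of the scarcest genes vary more between libraries, from 0.356% to 1.15% for Gp1ba and from 0.582% to 1.19% for Itgb3.

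Levels of different genes were compared in FPKM, which divides reads by gene length. In Ctrl the order was Ppbp (434 ± 69.7 FPKM), Pf4 (302 ± 49.9), Gp9 (82.0 ± 19.7), Tubb1 (57.3 ± 9.84), Gp1bb (35.4 ± 6.05), Itga2b (32.6 ± 6.20), Treml1 (28.3 ± 3.01), Clec1b (14.4 ± 1.47), Itgb3 (8.47 ± 1.80) and Gp1ba (6.54 ± 3.10). The libraries of Gp9 and Tubb1, of Gp1bb and Itga2b, of Itga2b and Treml1 and of Itgb3 and Gp1ba overlapped, so these neighbours were not separated by their spread. In LIP the order was the same but for Itga2b (71.5 ± 8.73 FPKM) and Gp1bb (68.0 ± 7.25), which changed places and overlapped, and Itgb3 (16.0 ± 4.92) and Gp1ba (12.4 ± 1.99) overlapped again. Among the 10440 tested genes, Ppbp ranked 78th and Pf4 102nd by mean FPKM, Gp9 389th and Gp1ba 3519th.

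The Ctrl libraries differed from each other in a way that followed gene length, and some of the 10 genes deviated in the same direction as other genes of their length. Over the 3386 genes with a mean FPKM of 10 or more and a known exonic length, the log2 deviation of a library from the others of its group correlated with log2 exonic length at r = 0.355 in Ctrl replicate 1 and r = -0.376 in Ctrl replicate 2, against 0.126 in replicate 3 and between -0.0623 and 0.0756 in the LIP libraries. These are correlations across genes, given as a description. Each deviation was taken from the other libraries of the group, so the deviations of a gene within a group cancel out. A high value in a library thus lowers the values of the others by construction. Opposite signs in Ctrl replicates 1 and 2 are therefore not separate observations. Ctrl replicate 2 was high for the short genes Ppbp (0.39 on the log2 scale, 1083 exonic bases) and Pf4 (0.34, 721 bases) and low for the long genes Itga2b (-0.44, 5454 bases) and Itgb3 (-0.43, 5901 bases). Ctrl replicate 1 was low for Ppbp (-0.37), Pf4 (-0.45) and Gp9 (-0.60, 881 bases) and high for Itgb3 (0.42). Tubb1 (1406 bases; 0.29 and -0.38 in replicates 1 and 2) and Clec1b (5103 bases; -0.21 and 0.27) ran against the trend. Gp1ba deviated most, with 1.00 in Ctrl replicate 1 and -0.88 in Ctrl replicate 2, although its 2718 bases are fewer than the median of 3511 over tested genes. Without Ctrl replicate 2 the log2 fold changes ran from 1.01 to 1.39 and without Ctrl replicate 1 from 1.08 to 1.67, with all 10 called in edgeR each time. The part of this pattern in the differences between members was not tested.

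**Figure D4:**
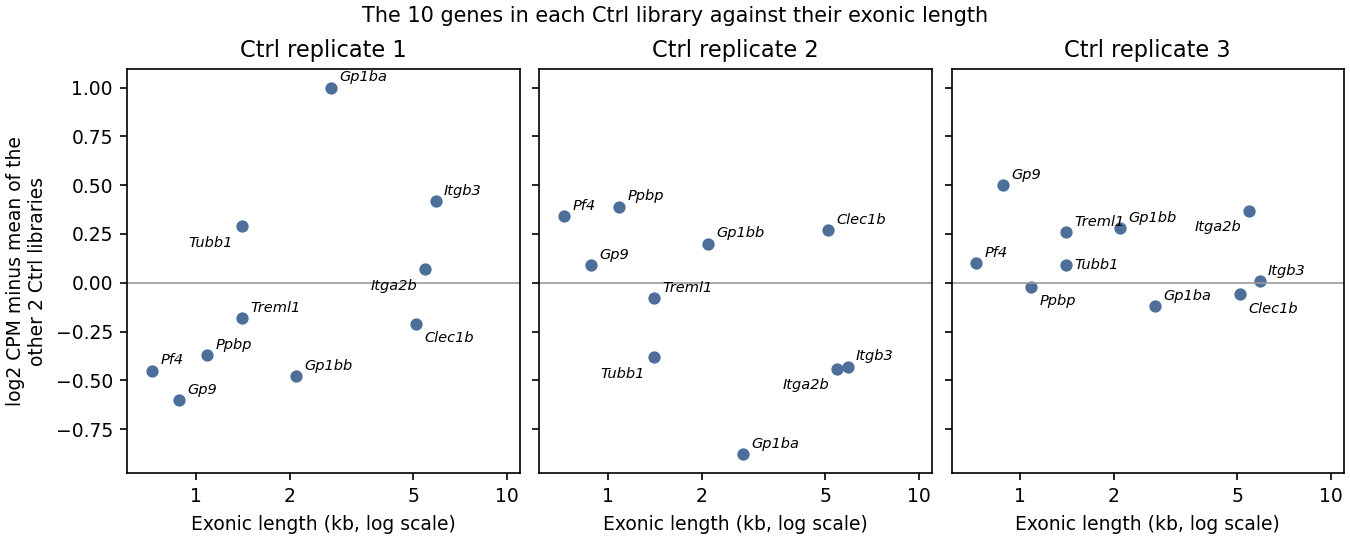
Each panel is 1 Ctrl library, and points give each gene's log2 CPM minus the mean of the other Ctrl libraries against its exonic length in kb on a log axis. Ppbp, Pf4 and Gp9 lie low and Gp1ba and Itgb3 high in replicate 1, and each lies on the other side of 0 in replicate 2, where Gp1ba lies at -0.88 and Itga2b at -0.44. The deviations of a gene over the Ctrl libraries cancel out by construction, so opposite sides are not separate observations.

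Of 70 other genes listed for platelets and megakaryocytes, 68 were in the table and 61 were tested. Under TMM 48 rose and 4 fell, with a median log2 fold change of 1.18 beside -0.09 over all tested genes. Of all tested genes 26.5% were called higher and 27.2% lower, and these shares also stand beside the lists that follow. Scaled on neutrophil markers, 0 rose and 50 fell, where 9473 of all 10440 tested genes were called lower. Genes of the platelet surface rose in 13 of 16 cases. Cd9, a tetraspanin that leukocytes also carry, rose from 359, 435 and 368 CPM in Ctrl to 938, 982 and 998 CPM in LIP, by 1.33 on the log2 scale (SE 0.0976, edgeR adjusted p = 1.93e-06). P2ry12, the ADP receptor blocked by clopidogrel, rose by 1.66 (SE 0.157, edgeR adjusted p = 1.08e-05). Selp, which encodes the P-selectin that binds leukocytes, rose the most, from 11.9, 17.9 and 11.7 CPM to 48.5, 55.4 and 47.8 CPM, by 1.87 (SE 0.208, edgeR adjusted p = 3.49e-05). The receptor list had 2 genes that fell. Tbxa2r, the thromboxane receptor, changed by -2.23 (SE 0.683, edgeR adjusted p = 0.0187) at 5.98, 13.4 and 9.46 CPM in Ctrl and 0.299, 2.61 and 3.24 CPM in LIP. Lat, an adaptor of collagen receptor signalling that T cells also use, changed by -1.50 (SE 0.127, edgeR adjusted p = 4.86e-06), and it is named because its values had been seen.

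Granule cargo rose in 10 of 12 cases and fell in 0. Srgn, the granule proteoglycan serglycin, which neutrophils also make, rose by 1.31 (SE 0.0809, edgeR adjusted p = 6.98e-07), Nrgn, a calmodulin-binding protein, by 1.35 (SE 0.121, adjusted p = 7.51e-06), and Clu, or clusterin, by 1.23 (SE 0.139, adjusted p = 3.86e-05). Mmrn1, the factor V carrier multimerin, rose the most of this list, by 1.65 (SE 0.294, edgeR adjusted p = 0.000905). The values of Nrgn were 243, 305 and 314 CPM in Ctrl and 708, 677 and 813 CPM in LIP, with Ctrl replicate 1 lowest and LIP replicate 3 highest, as for Ppbp and Pf4.

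Genes of the cytoskeleton, signalling and secretion machinery rose in 17 of 19 cases and fell in 0. Ctla2a, a cathepsin inhibitor, rose by 1.23 (SE 0.133), Gng11, a G protein γ subunit, by 1.17 (SE 0.140), Myl9, a myosin regulatory light chain, by 1.31 (SE 0.131), and Rab27b, a small GTPase of dense granule secretion, by 1.75 (SE 0.170). Of the 5 eicosanoid enzymes 4 rose. Among them Ptgs1, the cyclooxygenase blocked by aspirin, rose by 1.19 (SE 0.191, edgeR adjusted p = 0.000441) and Alox12, the 12-lipoxygenase, by 1.07 (SE 0.144, edgeR adjusted p = 0.000129). Ptges3, a co-chaperone with prostaglandin E synthase activity that most cells express, fell, with a change of -0.81 (SE 0.120, edgeR adjusted p = 0.000247).

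Of the megakaryocyte transcription factors, 4 of 9 rose and 1 fell, with a median log2 fold change of 0.33. Over all tested genes 26.5% were called higher and 27.2% lower. Nfe2, which drives platelet release and is also expressed in erythroid cells and granulocytes, measured 133, 167 and 145 CPM in Ctrl and 424, 446 and 448 CPM in LIP and rose by 1.57 (SE 0.111, edgeR adjusted p = 1.50e-06). Fli1, an ETS factor of megakaryocytes and leukocytes, fell slightly, with a change of -0.33 (SE 0.109, edgeR adjusted p = 0.0263), and Lyl1 stood at 0.33 (SE 0.173, edgeR adjusted p = 0.125). Gata1, the GATA factor of erythroid cells and megakaryocytes, was scarce, at 3.39, 1.92 and 3.07 CPM in Ctrl and 7.92, 8.45 and 11.0 CPM in LIP, and rose by 1.71 (SE 0.352, edgeR adjusted p = 0.00224). Gata1 is named because its values had been seen. Like Lyl1, 3 further factors of the list did not pass the threshold in edgeR. They were Gfi1b (0.14, adjusted p = 0.877), Runx1 (0.07, adjusted p = 0.687) and Zfpm1 (-0.53, adjusted p = 0.158).

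**Figure D5:**
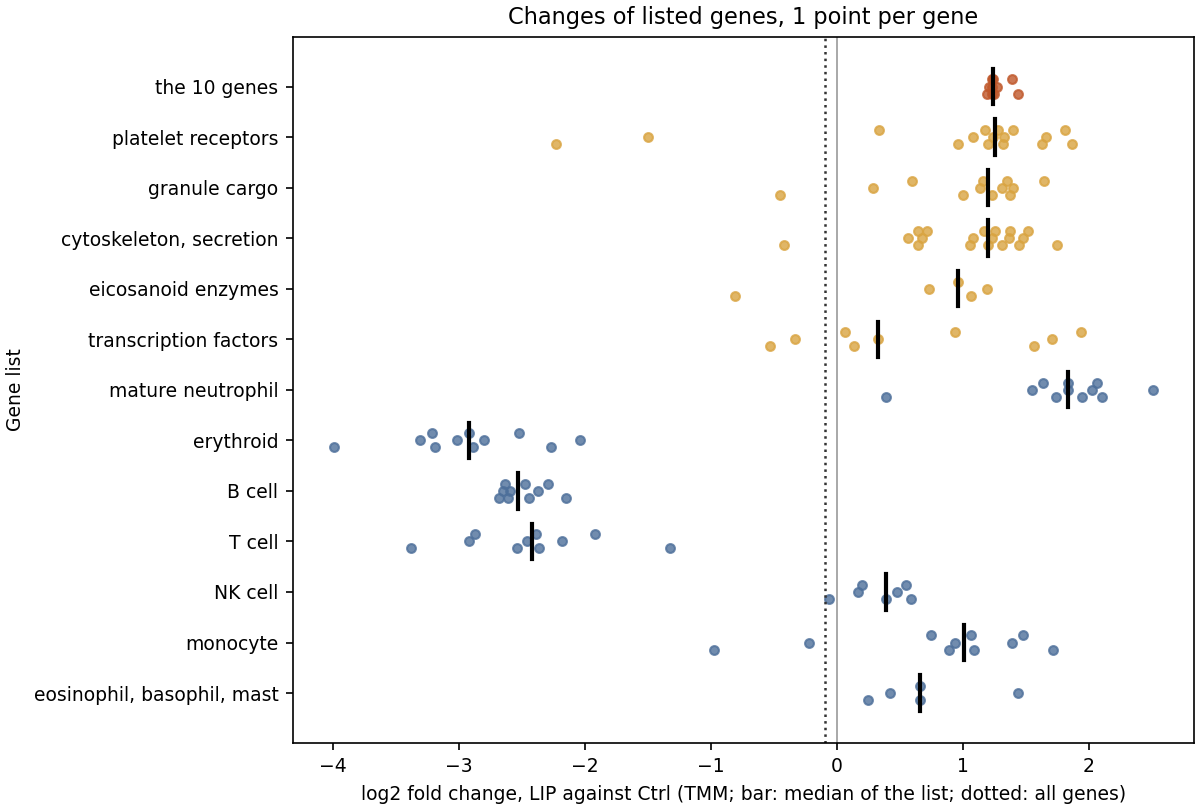
Each point is the log2 fold change of 1 tested gene (LIP against Ctrl, TMM), grouped by list, with a bar at the median of the list and a dotted line at the median of all genes. The 10 genes and 4 of the 5 other platelet lists have medians between 0.96 and 1.26, and the monocyte markers lie in that range too (1.01). The neutrophil markers lie higher (1.84). The eosinophil, basophil and mast cell markers (0.66), the NK cell markers (0.39) and the transcription factors (0.33) lie lower. The erythroid, B cell and T cell markers lie lowest (-2.92, -2.53 and -2.42). Under scaling on neutrophil markers the medians of the 10 genes and of the other platelet genes become -0.72 and -0.78.

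Markers of other cell types were set beside the platelet genes, since the libraries held RNA of several. How far each marker is limited to its named cells, and not shared with the sorted neutrophils or other cells, was not tested. The counts that follow stand beside 26.5% of all tested genes called higher and 27.2% called lower. Small lists can lie near these shares. Erythroid, B cell and T cell markers fell in all 11, 10 and 10 tested cases. Hba-a1, a haemoglobin gene whose reads can also stem from its near-identical copy Hba-a2, changed by -2.80, Ighm, the immunoglobulin heavy chain, by -2.15 and Lck, a T cell kinase, by -1.32. Monocyte markers rose in 8 of 10 cases and fell in 1, with summed CPM of 682 ± 33.0 in Ctrl and 1292 ± 32.1 in LIP, and Fcgr4, an Fc receptor, rose by 1.48 (SE 0.160, edgeR adjusted p = 2.87e-05). NK cell markers rose in 3 of 7 cases and fell in 0, with summed CPM of 360.2 ± 29.2 and 439.9 ± 16.0, and Gzma, or granzyme A, stood at 0.20 (edgeR adjusted p = 0.220). Eosinophil, basophil and mast cell markers rose in 1 of 5 cases, at 46.6 ± 5.79 and 74.1 ± 7.96 summed CPM. Of this sum Gzmb, or granzyme B, gave 26.6 CPM in Ctrl and 31.6 CPM in LIP, and its change stood at 0.25 (edgeR adjusted p = 0.342). Set against these, the 10 platelet genes gave 0.852 to 0.953 reads per 100 erythroid marker reads in Ctrl and 15.4 to 18.9 in LIP, 17.4 to 19.8 per 100 B cell marker reads in Ctrl and 213 to 255 in LIP, and 331 to 366 per 100 NK cell marker reads in Ctrl and 608 to 766 in LIP. The platelet reads were thus higher in LIP against each of these 3 lists and lower against the neutrophil markers, and the part of any of these cell types in the result was not tested.

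The genes whose pattern over the 6 libraries was most like that of the 10 were not on the platelet lists. By Pearson's r between log2(FPKM + 1) and the mean z-score of the 10, among the 3378 genes that reached a mean FPKM of 10, they were Ecm1 (r = 0.997), which encodes an extracellular matrix protein, Marcks (0.995), an actin-binding kinase substrate, Mpeg1 (0.993), the pore-forming perforin-2 of phagocytes, Itm2c (0.993), a membrane protein, and Gpsm3 (0.992), a G protein regulator. With 6 libraries in 2 separate groups such values are common, and 886 of the 3378 genes reached 0.9. Of the 10 genes, Treml1 followed the shared pattern most closely (0.995) and Gp1ba least (0.795). Each of the 10 is itself part of that mean, which raises its r, so these values do not compare with those of outside genes.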

How the data were processed

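Smart-seq2 libraries of sorted PB neutrophils were sequenced paired-end on an Illumina NovaSeq. For each gene the authors deposited its raw read count and its FPKM value, which divides reads by gene length and library size, for 29097 genes with GRCm38 coordinates. The submitters' processing notes name cutadapt 1.9 and FastQC. The aligner, counting tool and use of strand are not given in the sources used here. Total counts were 52186555 to 57262379, and reads carry no molecular identifiers. Within a group no pair of libraries was within sampling noise (chi-square per gene at least 51.9).

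Genes whose mean FPKM reached 1 were tested on the counts (edgeR 4.0.16, R 4.3.3, quasi-likelihood, TMM, Benjamini-Hochberg, threshold 0.05, no replicate block). The common biological coefficient of variation was 0.265. CPM values are TMM-normalized. Log2 fold changes are LIP against Ctrl, and intervals are at 95%. For 50 gene names on several rows, the more abundant row was kept. Exonic length is the union of exons in GENCODE M21, and deviations by length used log2(CPM + 0.5). The edgeR step was tested on simulated counts. Alternatives were DESeq2 1.42.0, limma 3.58.1 on log2(FPKM + 1) and log2(FPKM + 0.1), other scalings and filters, a replicate block, and leaving out each library.

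Named beyond the 10 genes were, for each platelet list, the 3 genes of highest mean FPKM and the largest called rise and fall, for each other cell type the gene of highest mean FPKM, and the 5 genes with the most similar pattern. S100a8, Cxcr4, Mmp8 and Ly6g are named as well, for the weights and the range within the neutrophil list. The members, lists and tests were chosen with earlier results of these data known. No set test was run. By the naming rule 1 further gene would be named, whose result is left out here.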

Additional observations from a re-analysis of the deposited data

How the results depend on the processing

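All 10 genes were called higher in every alternative but the scaling on mature neutrophil markers: library totals, median-of-ratios factors, TMM without haemoglobin genes, DESeq2, limma with either pseudocount, no filter, filterByExpr, a mean FPKM of at least 5 and the replicate block. Over these and the 6 fits that each left out a library, the adjusted p of Gp1ba rose to at most 0.0448 and that of Itgb3 to 0.0376. Scaled on neutrophil markers, 0 were higher and the log2 fold changes were -0.71 for Ppbp, -0.74 for Pf4, -0.70 for Gp1bb, -0.75 for Gp1ba, -0.67 for Gp9, -0.52 for Itga2b, -0.73 for Itgb3, -0.73 for Treml1, -0.77 for Clec1b and -0.58 for Tubb1. The ratio of their summed CPM, 2.41, became 0.624 under that scaling and 1.93 with library totals. Of the other platelet genes 48 rose and 4 fell in the reported fit. Scaled on neutrophil markers 0 rose and 50 fell, and with a mean FPKM of at least 5 there were 30 of 36 tested that rose. The number that fell was 7 with library totals and with limma at either pseudocount, and 2 with no filter and with filterByExpr; the cause was not tested. Markers of other cell types (12 higher, 32 lower) became 0 and 51 when scaled on neutrophil markers, which that scaling brings about by construction. Leaving out each library gave 10 to 10 of the 10 genes, 46 to 48 other platelet genes higher and 3 to 4 lower, 10 to 12 and 32 to 32 markers, and a ratio of 2.27 to 2.49. Over all genes 2766 were higher and 2835 lower, against 1919 and 4146 with library totals, 1981 and 4271 or 1865 and 4067 with limma, and 30 and 9473 when scaled on neutrophil markers. The median of all genes shifted with the setting, to -0.42 with library totals, -0.31 and -0.40 with limma, -0.25 with no filter and -2.06 with the neutrophil scaling, and the median of the 10 lay 1.10 to 1.52 above it in all fits. Same-numbered libraries of the groups shared only a number (correlation of their deviations 0.0212 to 0.0562). Ctrl replicates 2 and 3 correlated best with their own number. Ctrl replicate 1 missed by little, at 0.0212 against 0.0217 with LIP replicate 3. With the number as a replicate block, 10 of the 10 genes and 48 other platelet genes were higher and 4 lower, and no call on the 10 changed. The lowest count of the 10 genes was that of Gp1ba in Ctrl replicate 2, 630 reads. Without molecular identifiers, reads do not tell how many molecules were sampled, and a limit from sampling was not tested.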
